A study of Macaca mulatta with 8 samples.

Results

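The T helper lineage transcription factors RORA, GATA3, TBX21, MAF and BCL6 were followed through CD4 T cells of rhesus macaque blood. They were taken by gene symbol, and all 5 were present among the 16429 genes of the table, each with 1 identifier. RORA is ENSMMUG00000018192, GATA3 is ENSMMUG00000006944, TBX21 is ENSMMUG00000007098, MAF is ENSMMUG00000037756 and BCL6 is ENSMMUG00000009198.

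Helper T cells specialise under the direction of a small set of such factors, each of which favours 1 cytokine programme and restrains others. TBX21 (T-bet) is the factor of Th1 cells and of cytotoxic lymphocytes, GATA3 that of Th2 cells, and RORA takes part in the Th17 programme. BCL6 directs follicular helper cells, and MAF, which takes part in several of these fates, drives IL-4, IL-10 and IL-21 genes. Regulatory T cells (Tregs) can carry the same factors at low level, where they are known from mouse to shape effector Tregs of each kind.

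The 8 libraries came from 4 sorted populations at 2 times, day 20 and day 3, with 1 library for each. CFSEpos cells were sorted on CFSE, a dye that marks cells labelled before transfer, and the title of the study names the transferred cells as Tregs. Endo cells were CD25hi and CD127lo, the gate for the recipient's own Tregs. CD127posCD25pos and CD127posCD25neg cells were the conventional CD4 T cell gates with and without CD25. All libraries share cryopreservation, thawing on 1 date and magnetic enrichment for CD4. The labels name no animal, age, dose or drug treatment, and they do not say how many animals gave cells. With 1 library for each population and day there was no replicate, so no test was run, and all intervals given cover counting error only.

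The table held raw counts of UMIs (unique molecular identifiers, 1 per captured transcript) for 25397 cells. Library totals ran between 2992787 and 12149559 UMIs, with medians of 2131 to 3095 UMIs per cell. The authors' classes named 92.6% of CFSEpos cells on day 20 and 98.5% on day 3 transferred Tregs. In the Endo libraries they named 40.0% and 38.9% of cells endogenous Tregs on day 20 and day 3, and 57.9% and 60.9% conventional T cells. Summed Treg markers (6 of 7 listed genes were in the table) reached 560 and 1208 CPM (UMIs of a gene scaled to a common library total) in the CFSEpos libraries, 423 and 532 CPM in Endo, 177.9 and 179.5 CPM in CD127posCD25pos and 41.0 and 43.9 CPM in CD127posCD25neg, on day 20 and day 3. B cell markers summed to 17.1 to 106 CPM, monocyte markers to 3.68 to 21.4 CPM and cytotoxic markers to 35.3 to 988 CPM over the libraries. Of the Treg markers LRRC32 was at 0 in both CD127posCD25neg libraries. Red cell markers (2 of 4 listed genes) summed to 126 to 147 CPM on day 20 and to 306 to 1557 CPM on day 3. Libraries shared 382 cell barcodes, 2 to 31 for each pair and at most 0.957% of the smaller library.

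The 5 factors were sparse. RORA gave 1459 UMIs in 1359 cells, MAF 824 in 762, TBX21 520 in 474, GATA3 337 in 333 and BCL6 78 in 75. No UMI of any of them was seen in 22543 cells, while 2708 cells held 1 of the factors, 143 held 2 and 3 held 3. Levels are therefore given as CPM of counts summed over cells, in which fewer cells of a type and less RNA per cell cannot be told apart. CPM is not scaled by gene length, so levels are compared between cells and not between genes.

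RORA was low in the transferred cells on either day and higher in all 3 other populations. On day 20 its level was 5.01 CPM in CFSEpos, 22.6 CPM in Endo, 27.6 CPM in CD127posCD25pos and 21.1 CPM in CD127posCD25neg cells. On day 3 the same populations stood at 5.19, 29.8, 28.3 and 25.9 CPM. The 2 CFSEpos libraries were the lowest, and neighbours among the other 6 in order of level differed by ratios whose counting intervals all included 1. The step from the lowest of those 6 down to the CFSEpos library of day 3 was 4.08-fold (3.04 to 5.53).

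**Figure D1:**
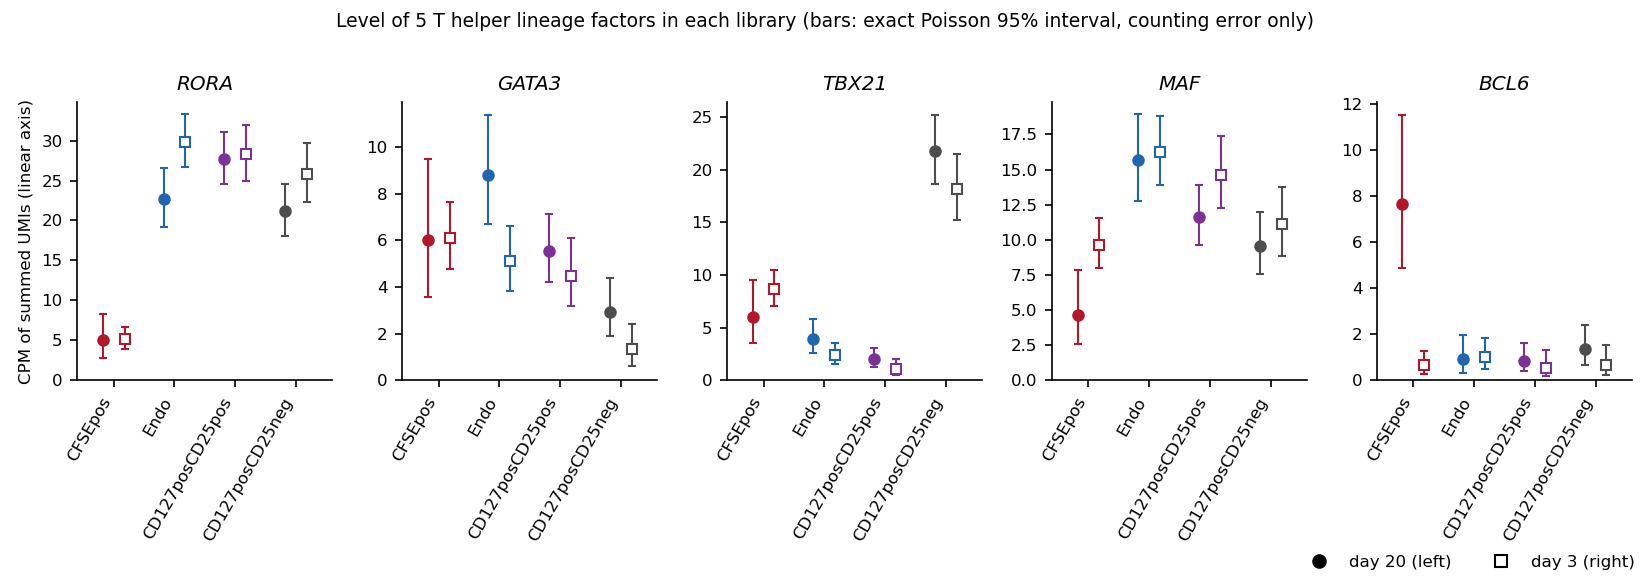
Level of each factor (vertical axis, CPM of summed UMIs, linear) in the 4 sorted populations, with circles for day 20 left of squares for day 3 and bars for the exact Poisson 95% interval. RORA is near 5 CPM in both CFSEpos libraries, TBX21 is highest in CD127posCD25neg cells at 21.7 and 18.2 CPM, and BCL6 stands out in the CFSEpos library of day 20 alone at 7.69 CPM.

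The CFSEpos to Endo ratio of RORA was 0.221 (0.121 to 0.377) on day 20 and 0.174 (0.13 to 0.228) on day 3. A gene was called where CPM + 10 differed at least 2-fold and 1 of the libraries held at least 20 CPM. On that log2(CPM + 10) scale the difference was -1.12 on day 20, when 1.69% of all measured genes were called lower, and -1.39 on day 3, when 2.36% were. Against CD127posCD25neg cells the log2(CPM + 10) differences were -1.05 and -1.24 on day 20 and day 3, beside 1.8% and 5.13% of genes called lower. RORA passed the rule in all 4 of these comparisons. With a pseudocount of 30 CPM or a minimum of 50 CPM none passed, and without cluster 5 of the authors' clustering CFSEpos over CD127posCD25neg of day 20 stood at -0.94 and did not pass. The median difference of all measured genes on the same scale was 0.36 for CFSEpos over Endo and 0.43 for CFSEpos over CD127posCD25neg on day 3, and 0.04 and 0.10 on day 20. Scaled by library totals, RORA was thus lower in transferred cells of day 3 while most measured genes were higher. With TMM factors, another scaling of the libraries, these medians of day 3 were 0.08 and 0.13. RORA then stood at -1.53 and -1.40. As plain ratios, 6.18% and 6.16% of genes with at least 20 UMIs in the pair of libraries were at least 2-fold lower in CFSEpos than in Endo cells on day 20 and day 3. For CFSEpos against CD127posCD25neg cells 5.91% and 9.27% were, and the ratio of RORA was 0.237 (0.13 to 0.402) and 0.201 (0.149 to 0.268).

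The share of cells with a RORA UMI followed the summed level. It was 1.31% (0.732 to 2.14) in CFSEpos, 5.85% in Endo, 5.87% in CD127posCD25pos and 4.46% in CD127posCD25neg cells on day 20, and 1.47% (1.13 to 1.89), 8.66%, 7.59% and 6.22% on day 3. With every cell thinned to 1000 UMIs the shares were 0.522% and 0.509% in the CFSEpos libraries of day 20 and day 3, and 2.18% to 2.87% in the other 6. No cells that should lack RORA were sorted, so a share due to free RNA was not measured. Between days RORA was not called in any population. The ratio of day 20 to day 3 was 0.967 (0.511 to 1.72) in CFSEpos and 0.759 (0.621 to 0.924) in Endo cells.

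Within the authors' 10 clusters RORA peaked in cluster 9 in all 6 libraries that held at least 50 cells of more than 1 cluster. Its level there was 48.3, 51.0 and 56.0 CPM in Endo, CD127posCD25pos and CD127posCD25neg cells on day 20, and 63.7, 61.9 and 64.7 CPM on day 3. Cluster 9 was also the cluster with the most CCR6, the chemokine receptor of Th17 cells, at 94.6 CPM over all libraries, and with the most IL23R, the receptor for the Th17 survival cytokine IL-23, at 11.7 CPM. Both were picked after their values were seen, and 4 of the 10 Th17-list genes in the table were highest there. KLRB1 was highest in cluster 5, at 985 against 104 CPM in cluster 9. BATF, an activation factor, and AHR, a ligand-sensing factor, were highest in cluster 3, and STAT3, which signals for IL-6 and IL-23, in cluster 6. The table marks RORA, TBX21 and MAF, but not GATA3 or BCL6, as genes used to order the cells. Levels of those 3 by cluster or finer name are thus descriptions and no independent finding.

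Clusters 3 and 5 came next, with RORA at 23.0 to 47.3 CPM over 4 libraries and at 37.6 and 46.8 CPM over 2 libraries. Cluster 9 stood above the next cluster by a ratio whose interval lay above 1 only in Endo cells of day 3, 1.55 (1.11 to 2.15), and CD127posCD25pos cells of day 3, 2.69 (1.44 to 5.55). In the transferred cells' own clusters, 2 on day 20 and 1 on day 3, RORA was at 4.12 and 5.02 CPM. Low levels were also seen in cluster 8, at 5.87 to 16.4 CPM over 4 libraries. Cluster 4 had 8.90 to 25.4 CPM over 4 libraries. Cells with a RORA UMI also held more CCR6 than the other cells of their library in all 6 libraries outside CFSEpos. The differences in CCR6 on the log2(CPM + 10) scale were 0.81, 0.54 and 1.37 in Endo, CD127posCD25pos and CD127posCD25neg cells on day 20, and 1.11, 1.61 and 0.89 on day 3. Of the 61 CFSEpos cells of day 3 with a RORA UMI, none gave a CCR6 UMI, and CCR6 itself was at 0.334 and 0.658 CPM in the CFSEpos libraries of day 20 and day 3. At that level the 61 cells are too few to show whether the 2 genes go together in transferred cells.

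**Figure D2:**
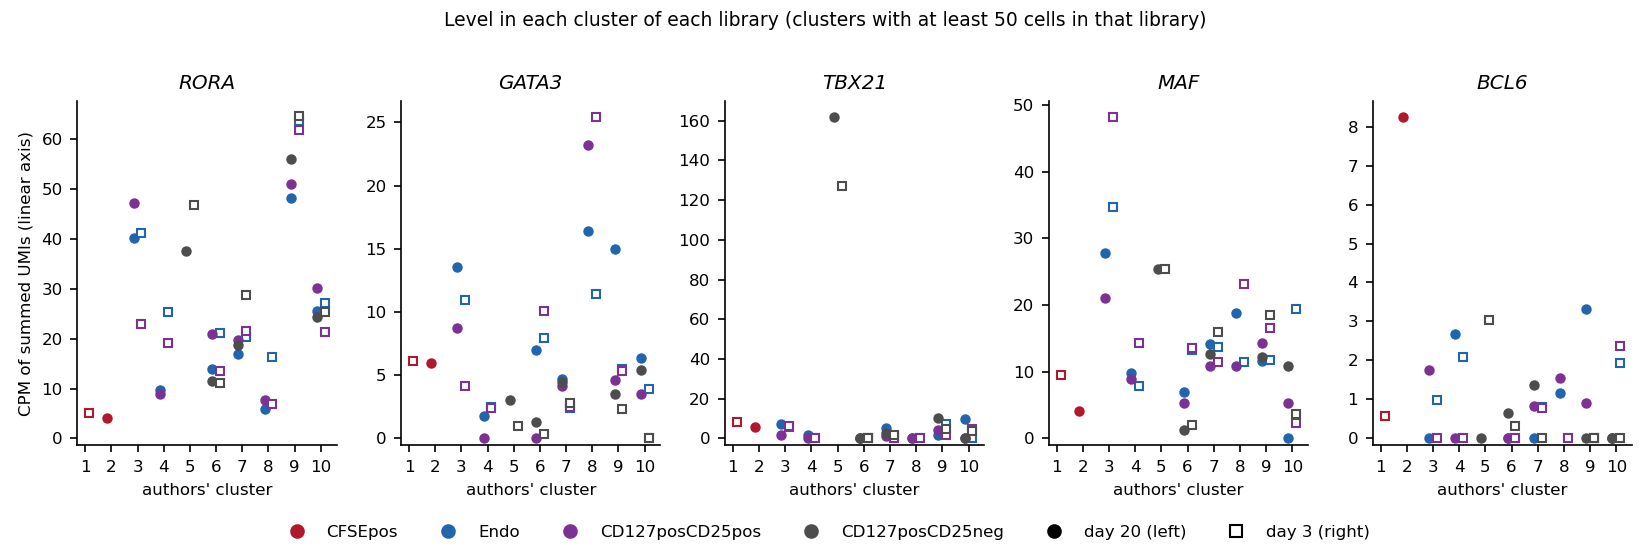
Level of each factor (vertical axis, CPM of summed UMIs, linear, scaled per panel) in each of the authors' clusters (horizontal axis), with 1 point per library that held at least 50 cells of the cluster. RORA is highest in cluster 9 in every library that has it, GATA3 in cluster 8 of 4 libraries, MAF in cluster 3 of 4 libraries and TBX21 in cluster 5 at 162 and 127 CPM.

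TBX21 was highest in CD127posCD25neg cells on either day. On day 20 it stood at 6.01 CPM in CFSEpos, 3.95 CPM in Endo, 2.002 CPM in CD127posCD25pos and 21.7 CPM in CD127posCD25neg cells. The day 3 levels in that order were 8.64, 2.41, 1.12 and 18.2 CPM. Both CD127posCD25neg libraries were above the other 6, and both CFSEpos libraries came next. The step from the CD127posCD25neg to the CFSEpos library of day 3 was 2.102-fold (1.62 to 2.74), and every other pair of neighbours in that order had an interval that included 1.

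On day 20 TBX21 was called lower in Endo than in CD127posCD25neg cells, by -1.19 on the log2(CPM + 10) scale beside 0.529% of all measured genes called lower. It was likewise called lower in CD127posCD25pos than in CD127posCD25neg cells, by -1.40 beside 0.563%. With a pseudocount of 30 CPM or a minimum of 50 CPM neither was called. The day 3 differences were -1.18 and -1.34 on that scale, beside 1.34% and 0.65% of genes, but no library compared reached 20 CPM and neither was called. The plain ratios of CPM were 0.182 (0.115 to 0.275) and 0.133 (0.0837 to 0.203) for Endo on day 20 and day 3, and 0.0921 (0.0556 to 0.145) and 0.0615 (0.0289 to 0.117) for CD127posCD25pos. Among genes with at least 20 UMIs in the pair, 2.18% and 4.65% were at least 2-fold lower in Endo, and 3.18% and 3.54% in CD127posCD25pos cells, on day 20 and day 3. CFSEpos over CD127posCD25neg cells gave -0.99 on day 20, just short of the 2-fold rule, and was called under each of 3 other scalings of the libraries, at -1.05, -1.04 and -1.04.

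Cluster 5 held nearly all TBX21 UMIs of the CD127posCD25neg libraries. In CD127posCD25neg cells 89.8% of the TBX21 UMIs of day 20 and 91.2% of those of day 3 lay in that cluster, which made up 16.6% and 18.1% of the cells. Its level there was 162 CPM (138 to 189) on day 20 and 127 CPM (106 to 151) on day 3. The next cluster of the same libraries, cluster 9, had 10.5 and 4.62 CPM. In cluster 5 a TBX21 UMI was seen in 22.5% and 20.04% of cells on day 20 and day 3, although its median of 1574 UMIs per cell was the lowest of all clusters. In cluster 6, where naive T markers summed to 1195 CPM and the median was 2482 UMIs, 1 of 2967 cells had one, and cluster 8 had 0 in 930 cells, which allows a share of cells with a UMI of up to 0.323% and sets no limit on cells that express the gene.

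Cluster 5 carried genes of cytotoxic lymphocytes, though not all of those listed. Over all libraries GZMB, a granzyme that kills target cells, was at 5342 CPM, NKG7, a protein of cytotoxic granules, at 1211 CPM and KLRB1, the surface receptor CD161, at 985 CPM. KLRB1 stands on the Th17 list here and not on the cytotoxic list. The summed cytotoxic list reached 6780 CPM (6 of 7 genes in the table), most of it GZMB and NKG7, and CD8 T markers summed to 3.4 CPM. GZMA, another granzyme of the list, was at 28.9 CPM in cluster 5 but at 42.1 CPM in cluster 3. NCAM1 of the list had no UMI in cluster 5. Without cluster 5, TBX21 in Endo against CD127posCD25neg cells of day 20 differed by 0.16 on the log2(CPM + 10) scale, and in CD127posCD25pos against CD127posCD25neg cells by -0.094, and neither was called. CFSEpos over CD127posCD25neg cells then gave 0.36 on day 20. Cluster 5 held nearly all TBX21 UMIs of that CD127posCD25neg library, so these values restate that share and are no further check.

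Cells with a TBX21 UMI differed by population in what else they held. Of those in the CD127posCD25neg libraries, 139 of 155 on day 20 and 112 of 122 on day 3 also gave a cytotoxic marker UMI, against 26.2% and 29.5% of the other cells. In the CFSEpos libraries 0 of 17 on day 20 and 13 of 103 on day 3 did, against 2.92% and 8.24% of the other cells. Treg marker UMIs were seen in 14 of 17 and 102 of 103 of the CFSEpos cells with TBX21 on day 20 and day 3, against 73.1% and 92.5% of the other cells.

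**Figure D3:**
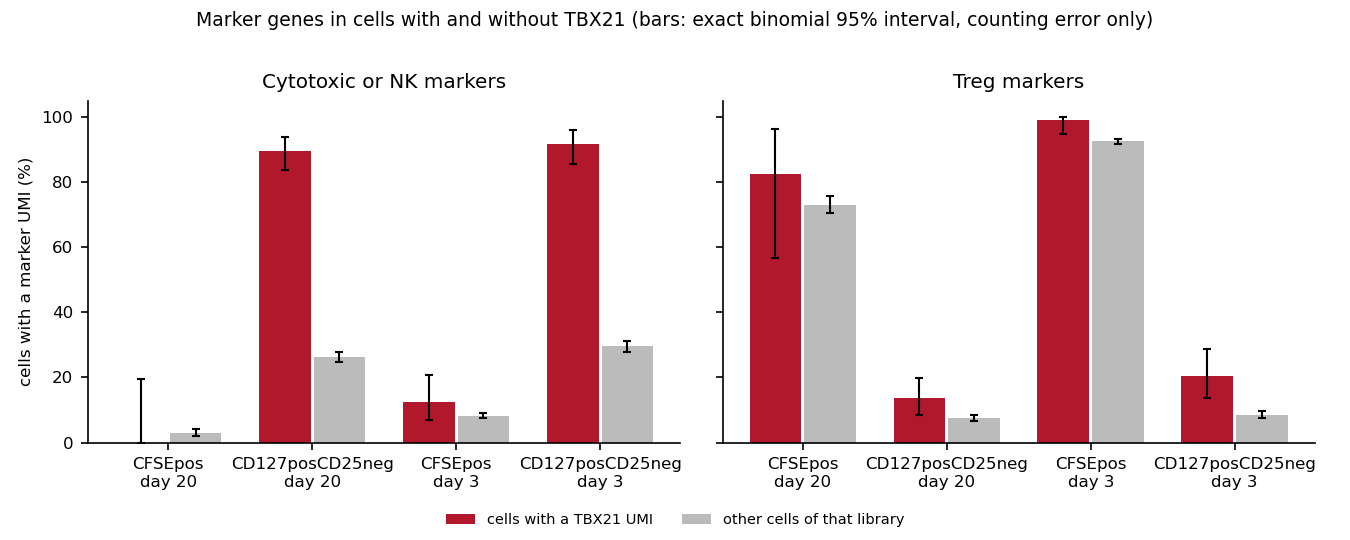
Share of cells (vertical axis, percent) with at least 1 UMI of the cytotoxic list (left) or the Treg list (right), in cells with a TBX21 UMI (red) and the other cells of that library (grey), with exact binomial 95% intervals. A cytotoxic marker is seen in 0% and 12.6% of TBX21 cells in the CFSEpos libraries of day 20 and day 3, and in 89.7% and 91.8% in the CD127posCD25neg libraries.

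The Th1 partners RUNX3, which acts with T-bet, and STAT4, which signals for IL-12, were picked here after their values were seen. In CD127posCD25neg cells with a TBX21 UMI, RUNX3 had 102 CPM (day 20) and 106 CPM (day 3), while the other cells had 21.8 and 23.2 CPM. STAT4 was at 34.0 and 39.9 CPM, against 10.8 and 11.2 CPM. In CFSEpos cells of day 3 with a TBX21 UMI the 2 genes were at 37.1 and 9.27 CPM, against 28.2 and 4.31 CPM in the other cells, and the intervals of both differences included 0. The TBX21 cells of the CD127posCD25neg libraries also had fewer UMIs, with medians of 1540 and 1682 on day 20 and day 3 against 2208 and 2469 in the other cells. The part of that depth in these differences was not tested.

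Between the Treg gates, TBX21 was higher in the transferred cells of day 3. The CFSEpos to Endo ratio of its CPM was 1.52 (0.786 to 2.88) on day 20 and 3.59 (2.32 to 5.74) on day 3. Of 10077 genes with at least 20 UMIs in the 2 libraries of day 3 together, 257 had a larger ratio and 11.3% were at least 2-fold higher. TBX21 reached 20 CPM in neither library and was not measured by the rule on CPM + 10. Cells that the authors classed as transferred and endogenous Tregs had 6.09 and 4.88 CPM of TBX21 on day 20, and 8.52 and 2.95 CPM on day 3. The ratio of these 2 classes was 1.25 (0.572 to 2.8) on day 20 and 2.89 (1.62 to 5.62) on day 3.

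GATA3 was lowest in the conventional cells without CD25. It was at 6.01 CPM in CFSEpos, 8.81 CPM in Endo, 5.53 CPM in CD127posCD25pos and 2.95 CPM in CD127posCD25neg cells on day 20. The levels of day 3 were 6.09, 5.10, 4.47 and 1.33 CPM. In order of level, neighbours had intervals above 1 at the top, where Endo of day 20 stood 1.45-fold (1.01 to 2.07) over CFSEpos of day 3, and at the bottom, where CD127posCD25neg of day 20 stood 2.22-fold (1.03 to 5.21) over day 3. No library reached 20 CPM, so GATA3 was measured in none of the 12 comparisons under the rule.

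The plain ratio of GATA3 in Endo over CD127posCD25neg cells was 2.99 (1.83 to 5.03) on day 20 and 3.85 (1.94 to 8.46) on day 3. Among genes with at least 20 UMIs in both libraries together, 4.98% and 3.61% were at least 2-fold higher. For CFSEpos over CD127posCD25neg cells the ratio was 2.04 (1.04 to 3.92) and 4.59 (2.36 to 9.98), beside 5.06% and 16.6%. For CD127posCD25pos over CD127posCD25neg cells it was 1.88 (1.15 to 3.16) and 3.37 (1.66 to 7.56), beside 2.19% and 1.53% at least 2-fold higher. All 6 ratios had intervals above 1, and all share the same CD127posCD25neg library of their day. Between CFSEpos and Endo cells GATA3 gave 0.682 (0.378 to 1.17) on day 20 and 1.19 (0.832 to 1.73) on day 3.

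By cluster GATA3 was highest in cluster 8 in each of the 4 libraries that held at least 50 of its cells. Levels there were 16.4 and 23.2 CPM in Endo and CD127posCD25pos cells on day 20, and 11.5 and 25.4 CPM on day 3, from 7 to 15 UMIs each. The lead over the next cluster had an interval that included 1 in all 4. PTGDR2, the prostaglandin receptor that marks Th2 cells, was also most abundant in cluster 8, at 17.8 CPM over all libraries against 2.13 CPM in the next cluster. PTGDR2 was picked after its values were seen. IL1RL1, the IL-33 receptor that Th2 cells and tissue Tregs use, was at 4.16 CPM in cluster 8 and highest in cluster 3 at 186 CPM. Among 11 Th2-list genes present, PTGDR2 and the IL-4 receptor IL4R were highest in cluster 8, and 5 were highest in cluster 3, among them CCR4, CCR8 and IL5. IRF4 was lower in cluster 8 than in any other cluster, at 5.29 CPM. TBX21 had no UMI in cluster 8, as given above.

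MAF was highest in Endo cells and lowest in transferred cells of day 20. Its level was 4.68 CPM in CFSEpos, 15.7 CPM in Endo, 11.6 CPM in CD127posCD25pos and 9.58 CPM in CD127posCD25neg cells on day 20. It stood at 9.63, 16.2, 14.6 and 11.1 CPM on day 3. The CFSEpos library of day 20 lay apart from the next by 2.05-fold (1.15 to 3.92), and all other neighbours in order of level had intervals that included 1. No library reached 20 CPM, so it too was measured in none of the 12 comparisons. The CFSEpos to Endo ratio was 0.299 (0.158 to 0.524) on day 20 and 0.594 (0.466 to 0.755) on day 3, beside the 6.18% and 6.16% of genes at least 2-fold lower given for RORA. Between the authors' classes of transferred and endogenous Tregs it was 0.195 (0.0918 to 0.377) on day 20, at 3.94 and 20.3 CPM, and 0.468 (0.351 to 0.625) on day 3, at 9.44 and 20.2 CPM. In these classes MAF passed the 20 CPM minimum and was called lower on day 20, by -1.12 on the log2(CPM + 10) scale, as were 89 of 4043 genes. In CFSEpos cells the ratio of day 20 to day 3 was 0.486 (0.258 to 0.848), with 14 and 117 UMIs, and 8.02% of genes were at least 2-fold lower. Red cell markers summed to 143 and 732 CPM in these 2 libraries, and their part in this ratio and in the BCL6 ratio between days was not tested.

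The cluster with the most MAF was cluster 3 in the Endo and CD127posCD25pos libraries, at 27.9 and 21.0 CPM on day 20 and 34.7 and 48.1 CPM on day 3. It was cluster 5 in CD127posCD25neg cells, at 25.4 CPM on either day. The lead over the next cluster had an interval that included 1 in all 4 libraries led by cluster 3 and in CD127posCD25neg cells of day 3, and was 2.01-fold (1.16 to 3.44) in CD127posCD25neg cells of day 20. In cluster 3 Treg markers summed to 1042 CPM and memory markers to 5755 CPM over all libraries. Its cytotoxic and B cell markers summed to 257 and 142 CPM, and their part in the MAF level was not tested.

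By library, BCL6 was nearly absent except in the transferred cells of day 20. It was at 7.69 CPM (4.87 to 11.5) in CFSEpos, 0.912 CPM in Endo, 0.858 CPM in CD127posCD25pos and 1.35 CPM in CD127posCD25neg cells on day 20, from 23, 6, 9 and 11 UMIs. On day 3 the levels were 0.658, 1.02, 0.559 and 0.663 CPM, from 8, 11, 5 and 5 UMIs. The CFSEpos library of day 20 stood apart from the next by 5.69-fold (2.66 to 12.9), and no other neighbours in the order of the 8 libraries had an interval above 1.

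In CFSEpos cells the ratio of day 20 to day 3 was 11.7 (5.04 to 30.2). Of 9398 genes with at least 20 UMIs in the 2 libraries together, 1 had a larger ratio, and 5.65% were at least 2-fold higher. Against Endo cells of day 20 the ratio was 8.43 (3.34 to 25.3), with 16 of 8755 genes above it and 2.66% at least 2-fold higher. Between the authors' classes of transferred and endogenous Tregs of day 20 it was 7.33 (2.21 to 38.1). Between their naive groups of day 20, BCL6 was at 8.52 CPM in transferred and 2.62 CPM in endogenous cells, from 22 and 3 UMIs. That ratio was 3.25 (0.976 to 17.0), an interval that includes 1. Since the level stayed under 20 CPM the rule on CPM + 10 did not measure it, and the log2(CPM + 10) difference of 0.73 between days understates the plain ratio. The CFSEpos library of day 20 was the smallest of the 8, and the 23 UMIs came from 22 cells of that 1 library.

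Those cells were transferred Tregs by the authors' names and by their markers. Of the 23 UMIs, 22 lay in cluster 2, which made up 88.6% of the library's cells. A Treg marker UMI was seen in 20 of the 22 cells with BCL6, or 90.9%, against 72.8% of the library's other cells. B cells, in which BCL6 is known for germinal centre fate, were looked for in the same cells. A B marker UMI was seen in 3 of 22, or 13.6%, against 8.96% of the library's other cells, and a monocyte or cytotoxic marker UMI in 0 of 22. BANK1, a B cell signalling adaptor, had no UMI in that library.

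**Figure D4:**
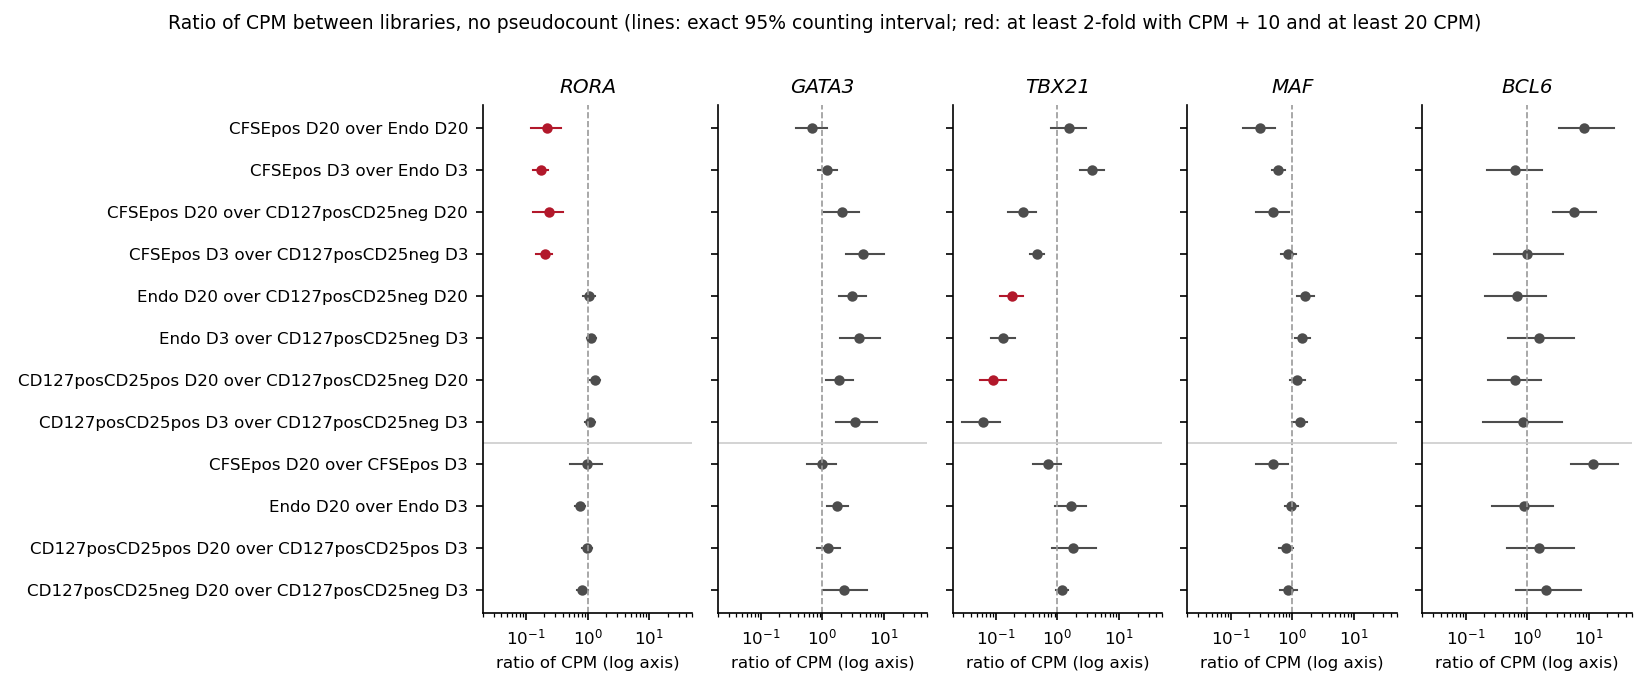
Ratio of CPM without pseudocount (horizontal axis, log scale) of each factor in 12 comparisons, 8 between sorted populations and, under the grey line, 4 of day 20 over day 3, with exact 95% counting intervals. Red marks the 6 ratios that passed the 2-fold rule, 4 of RORA and 2 of TBX21, and the largest ratio is the 11.7 of BCL6 in CFSEpos cells of day 20 over day 3.

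No factor was called higher in any of the 8 comparisons between sorts. For CFSEpos over Endo cells 0.531% and 4.61% of measured genes were called higher on day 20 and day 3, and for CFSEpos over CD127posCD25neg cells 1.67% and 9.97%. The shares were 1.08% and 1.12% for Endo over CD127posCD25neg and 0.215% and 0.0848% for CD127posCD25pos over CD127posCD25neg cells. Between days no factor was called, beside 4.68%, 1.72%, 0.137% and 0.11% of measured genes called higher or lower in CFSEpos, Endo, CD127posCD25pos and CD127posCD25neg cells. RORA was measured in 11 of the 12 comparisons and called in 4, and TBX21 was measured in 4 and called in 2. GATA3, MAF and BCL6 were measured in none, so a call was open only to RORA and TBX21.

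The authors' finer names split the Tregs into effector and naive groups. RORA, GATA3 and MAF were higher in the effector than in the naive group of the Endo cells on either day. For TBX21 the interval lay above 1 on day 3 only. No share of all genes was computed for comparisons between finer names, so how common such differences were is not known. RORA was at 44.2 CPM in effector and 10.5 CPM in naive Endo Tregs on day 20, a ratio of 4.21 (2.24 to 8.61). The day 3 values were 43.9 and 26.1 CPM, a ratio of 1.68 (1.19 to 2.37). MAF was at 29.97 CPM in effector and 8.74 CPM in naive cells on day 20, a ratio of 3.43 (1.69 to 7.69). The day 3 values of MAF were 38.5 and 8.71 CPM, a ratio of 4.42 (2.7 to 7.45). GATA3, which was not used to order the cells, was at 14.2 CPM in effector and 1.75 CPM in naive cells on day 20, from 19 and 2 UMIs. Its day 3 values were 12.0 and 3.03 CPM, a ratio of 3.97 (1.67 to 10.4). TBX21 had 6.74 CPM in effector and 2.62 CPM in naive cells on day 20, a ratio of 2.57 (0.642 to 14.8). On day 3 TBX21 had 6.62 and 0.379 CPM, from 11 and 1 UMIs, a ratio of 17.5 (2.54 to 752). BCL6 had 0 and 3 UMIs in effector and naive cells on day 20, and 2 and 5 on day 3.

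**Figure D5:**
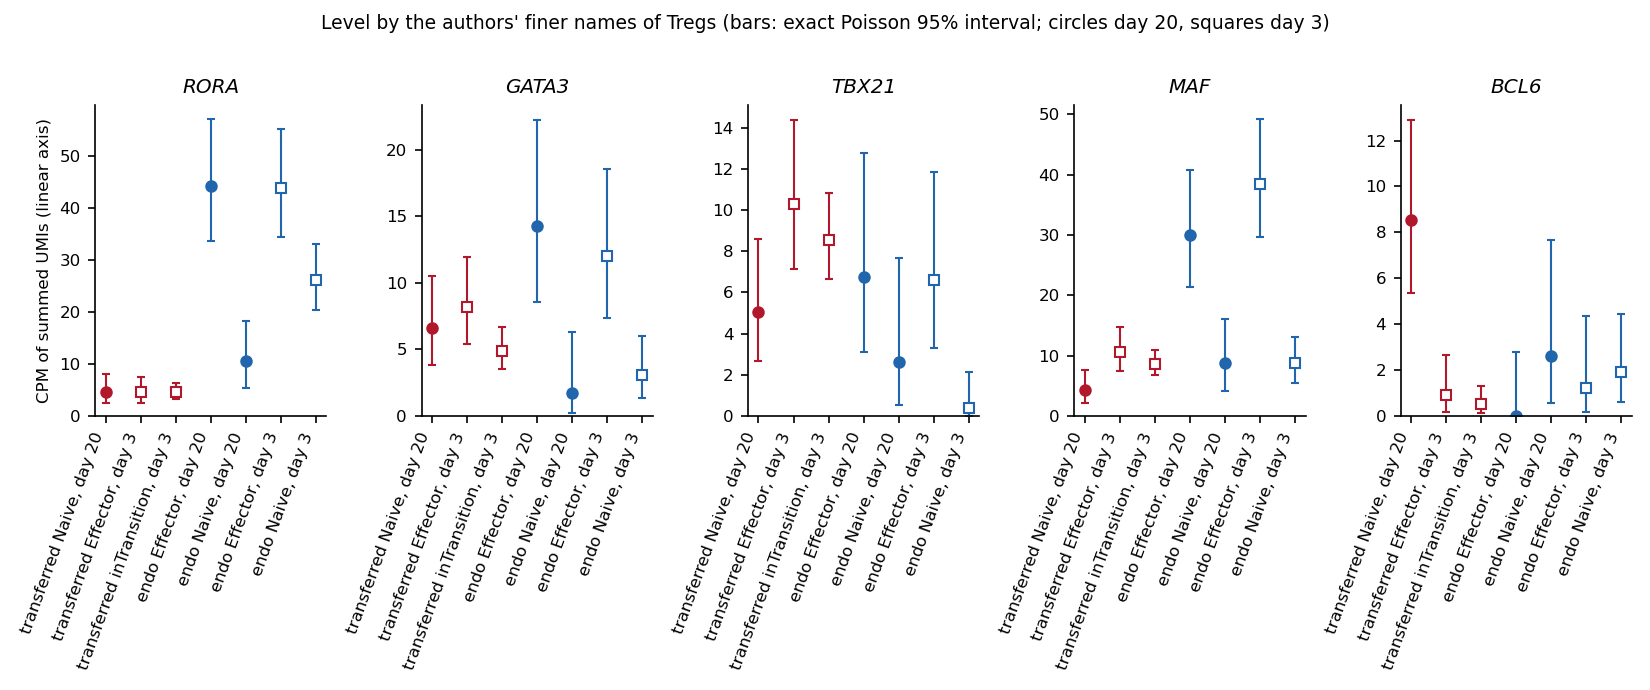
Level of each factor (vertical axis, CPM of summed UMIs, linear, scaled per panel) in the transferred (red) and endogenous (blue) Tregs by the authors' finer names, with exact Poisson 95% intervals. RORA and MAF are higher in effector than in naive endogenous Tregs on either day, while RORA stays at 4.54 to 4.65 CPM in all 3 transferred groups.

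Transferred effector Tregs of day 3 had less RORA and MAF than endogenous ones. On day 3 RORA was at 4.54 CPM in transferred and 43.9 CPM in endogenous effector Tregs, a ratio of 0.103 (0.0551 to 0.182). MAF was at 10.6 and 38.5 CPM, a ratio of 0.275 (0.177 to 0.422). GATA3 was at 8.18 and 12.0 CPM and TBX21 at 10.3 and 6.62 CPM, with ratios of 0.68 (0.367 to 1.28) and 1.56 (0.77 to 3.4) whose intervals include 1. In the naive groups of day 20 RORA was at 4.65 CPM in transferred and 10.5 CPM in endogenous cells, a ratio of 0.443 (0.182 to 1.08). MAF was at 4.26 and 8.74 CPM there, a ratio of 0.487 (0.188 to 1.28). Both intervals include 1, with 10 to 12 UMIs in each group. Between the whole classes of day 20 the RORA ratio was 0.157 (0.0776 to 0.291).

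Among transferred cells RORA was at 4.65 CPM in the naive group of day 20 and at 4.54 and 4.65 CPM in the effector and in-transition groups of day 3. The ratio of the naive to the effector group was 1.02 (0.437 to 2.34), which leaves room for a difference of 2-fold either way. The naive group of day 20 had BCL6 at 8.52 CPM, against 0.908 CPM in the effector group of day 3, a ratio of 9.38 (2.82 to 48.9) from 22 and 3 UMIs. It had TBX21 at 5.03 against 10.3 CPM, a ratio of 0.489 (0.237 to 0.95), and MAF at 4.26 against 10.6 CPM, a ratio of 0.402 (0.184 to 0.81). Name and day cannot be told apart in these ratios. The naive group had 985 cells on day 20 and 123 on day 3, and the day 3 cells gave 2 RORA UMIs and 0 BCL6 UMIs.

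Pairs of the factors in 1 cell were rare, since most cells gave no UMI of any. GATA3 and MAF were seen together in 25 cells, which were 7.51% of GATA3 cells, against 2.94% MAF cells among the others. In Endo cells the shares were 12.3% against 3.59% on day 20 and 16.4% against 4.59% on day 3, from 7 and 9 shared cells, and in CFSEpos cells of day 3 they were 2.78% against 2.75%. Over all libraries, cells with a GATA3 UMI had a median of 2777 UMIs against 2535 in the other cells. In Endo cells cluster 3 held 36.2% and 40% of GATA3 UMIs and 41.7% and 40% of MAF UMIs on day 20 and day 3. The part of depth and of shared clusters in these pairs was not tested. GATA3 and TBX21 shared 5 cells, or 1.502% of GATA3 cells against 1.87% of the others. GATA3 and BCL6 shared 0 cells of 333 and 75. RORA and MAF shared 43 cells, or 3.16% of RORA cells against 2.99% of the others. Across the libraries with at least 50 cells that held RORA, GATA3, TBX21 or MAF, no measured gene was at least 2-fold higher, or at least 2-fold lower, in such cells than in the other cells of every library. These were 0 of 3134 genes (0%) over 7 libraries for RORA, 0 of 3347 (0%) over 4 for GATA3, 0 of 3517 (0%) over 3 for TBX21 and 0 of 3146 (0%) over 7 for MAF. A gene that goes with a factor in only some populations cannot be counted this way. In TBX21 cells cytotoxic markers summed to 6199 against 813 CPM and 6075 against 792 CPM in CD127posCD25neg of day 20 and day 3. They summed to 55.6 against 50.5 CPM in CFSEpos of day 3.

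Of 49 further genes in lists for the 4 fates, 43 were in the table, 12 of 13 for Th1, 11 of 12 for Th2 and 10 of 12 each for Th17 and Tfh. EOMES, IL13, IL17A, IL22, PDCD1 and ASCL2 were not analysed here. At 20 CPM, 3 Th1, 4 Th2, 4 Th17 and 3 Tfh genes could be measured in some comparison, and most lineage cytokines could not. IFNG was at 0 to 1.72 CPM over the libraries and IL21 at 0 to 0.456 CPM.

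Called differences between sorts fell on 5 of these genes. Over the 8 comparisons 0.0848% to 9.97% of all measured genes were called higher and 0.529% to 5.13% lower. The share of all genes called in at least 1 of these comparisons was not computed. IL1RL1 of the Th2 list was called higher in CFSEpos than in CD127posCD25neg cells, and in Endo than in CD127posCD25neg cells, on either day. Its level was 45.1 CPM in CFSEpos, 63.5 CPM in Endo and 1.84 CPM in CD127posCD25neg cells on day 20. On day 3 it was 138, 35.2 and 2.25 CPM, and CFSEpos over Endo was called higher, beside the shares of genes called higher given above. IL18R1, the IL-18 receptor of the Th1 list, was at 59.7 CPM in CFSEpos, 15.9 CPM in Endo and 5.57 CPM in CD127posCD25neg cells on day 3, and was called higher in CFSEpos against each of them. Both were called lower in CFSEpos cells of day 20 than of day 3, by -1.42 and -1.40 on the log2(CPM + 10) scale, where the median of all measured genes was -0.26 and 2.12% were called lower.

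On the Th17 list CCR6 was called lower in CFSEpos than in Endo cells on day 20, as were 1.69% of measured genes. It was at 0.334 CPM from 1 UMI against 21.1 CPM. On the same day it was called higher in CD127posCD25pos than in CD127posCD25neg cells, at 25.6 against 6.39 CPM, beside 0.215% of genes. KLRB1 was called lower than in CD127posCD25neg cells in all 6 comparisons against them, where 0.529% to 5.13% of genes were called lower. In CFSEpos cells of day 3 it was at 17.6 against 155 CPM. BTLA of the Tfh list, an inhibitory receptor, was called lower in CFSEpos than in CD127posCD25neg cells on day 20, at 2.67 against 20.3 CPM. In that comparison 1.8% of genes were called lower. The largest differences in RUNX3, IRF4, STAT6, BATF, ICOS and PRDM1, taken from different comparisons, did not pass the rule. On the log2(CPM + 10) scale RUNX3 and STAT6 were at 0.52 and 0.62 for CFSEpos over Endo on day 3. Over CD127posCD25neg on day 3, IRF4 was at 0.69 for Endo and BATF at 0.96 for CFSEpos. ICOS was at -0.82 for CFSEpos over Endo on day 20, and PRDM1 at -0.74 for CFSEpos of day 20 over day 3. For CFSEpos over Endo cells of day 3 the list medians on that scale were 0.52 for Th1, 0.43 for Th2, 0.06 for Th17 and -0.19 for Tfh, over 3, 4, 3 and 2 genes, beside 0.36 for all measured genes.

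The genes whose levels ran most like those of RORA and TBX21 over the 8 libraries were sought among 1983 named genes with at least 50 CPM in some library. For RORA these were GPRIN3, APOD, NFKBIZ, a nuclear regulator of NF-kB targets, PLA2G16 and the integrin subunit ITGB1, with Pearson correlations of 0.979, 0.977, 0.968, 0.959 and 0.959 on the log2(CPM + 10) scale. ITGB1 was at 26.4 CPM in CFSEpos, 408 CPM in Endo, 387 CPM in CD127posCD25pos and 203 CPM in CD127posCD25neg cells on day 20. For TBX21 they were GNLY, GZMB, GZMM, CCL4L1 and PLAC8, at 0.968, 0.940, 0.938, 0.918 and 0.917. The first 4 encode granule proteins, granzymes and a chemokine of cytotoxic lymphocytes, and GZMB was at 32.4, 45.9, 16.5 and 742 CPM in that order of populations on day 20. The 8 points are 4 populations at 2 times, with the 2 CFSEpos libraries apart for RORA and the 2 CD127posCD25neg libraries apart for TBX21, so the correlations describe these libraries only.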

How the data were processed

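Blood mononuclear cells were frozen, thawed, enriched for CD4, sorted and run on the 10x 3' version 2 platform, per the labels' protocols. Per the submitters' processing notes the reads went through Cell Ranger 2.1.1. Which genome build was used is not given in the sources used here. Deposited by the authors were raw UMI counts per gene and cell, with each cell's library, class (3), cluster (10) and, for 7515 cells, finer name (7), without a method. The counts of 25397 of 25397 cells sum to the deposited totals.

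Counts were summed per library or group of at least 50 cells and divided by the total (CPM), with exact Poisson, exact binomial (Clopper-Pearson) or exact conditional intervals at 95%, in Python 3.11.15 with scipy 1.17.1. The floor of a count of 0 is 3 counts. Ratios used a pseudocount of 10 CPM and a minimum of 20 CPM in 1 library, and a second rule used plain ratios with at least 20 UMIs in the pair. No test was run, since each group has 1 library. All deposited cells were kept, no cells were clustered and no doublet caller was run. Cells with doublet-like markers or depth were left out in an alternative. The named genes were all 5 factors, the 5 most like genes for factors reaching 20 CPM, the 3 measured genes of each list with the largest difference, and partner genes at least 2-fold apart the same way in every library, of which there were none. CCR6, RUNX3, STAT4, IL1RL1, PTGDR2, IL23R, the other list genes named by cluster and the marker genes named by cluster, and IFNG and IL21, were chosen after their values were seen. Some genes the rule names are not reported here. The factors and lists were chosen with earlier results of these data known. The ratio script was tested on simulated data. Alternative scalings used edgeR 4.0.16 (TMM) and DESeq2 1.42.0 (size factors).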

Additional observations from a re-analysis of the deposited data

How the results depend on the processing

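With a pseudocount of 1 CPM the called log2 differences of RORA were -1.98 and -2.32 for CFSEpos over Endo and -1.88 and -2.12 for CFSEpos over CD127posCD25neg, on day 20 and day 3. With 30 CPM they were -0.59 and -0.77, and -0.55 and -0.67, and as plain ratios -2.18 and -2.52, and -2.08 and -2.32. Scaling on named genes gave -1.45 for CFSEpos over CD127posCD25neg on day 3. Those of TBX21 on day 20 were, for Endo over CD127posCD25neg, -2.20 with 1 CPM, -0.61 with 30 CPM, -1.56 as a mean over cells and -2.46 as a plain ratio. For CD127posCD25pos over CD127posCD25neg they were -2.92, -0.69, -1.71 and -3.44, and -1.18 with libraries thinned to the smallest total. Without cluster 5, chosen after seeing the data, they were 0.16 (turned in sign) and -0.094 for Endo and CD127posCD25pos over CD127posCD25neg. The 6 calls of lower factors became 0 with 30 CPM or a minimum of 50 CPM, and 3 without cluster 5, where RORA in CFSEpos over CD127posCD25neg of day 20, at -0.94, and both TBX21 calls were lost. They became 12 as plain ratios, also chosen after seeing the data, where 8 were higher between sorts, 2 higher and 1 lower between days. In the other alternatives they numbered 6 to 9, with none higher and none between days.

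Scaling moved all genes: of those called for CFSEpos over Endo on day 3, 191 were higher and 98 lower by library totals, but 77 and 159 with TMM factors, and for CFSEpos over CD127posCD25neg 422 and 217, but 166 and 335. For CFSEpos of day 20 over day 3 they were 108 and 89, but 131 and 52 with TMM and 191 and 37 scaled on named genes. The median of all genes moved to 0.08, 0.13 and -0.14 with TMM in these 3 comparisons. The share of genes called, higher or lower, ran between 0.11% and 15.1% over the 12 comparisons, 0.0546% and 7.47% with 30 CPM, 0.221% and 22.8% with 1 CPM, 0.0275% and 4.69% with no minimum, and 2.55% and 25.8% as plain ratios. The cause of these changes was not tested. Summing identifiers could change nothing, since each factor has 1. By Spearman correlation NFKBIZ ranked 2 for RORA, GNLY 1 and GZMB 3 for TBX21, and the other 7 genes ranked 7 to 55. No paired analysis was possible because each group had 1 library. The counts limit BCL6 most, with 5 to 23 UMIs per library, and no value has a replicate check.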
